A study of Mus musculus with 12 samples.

Results

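The cytochrome P450 genes were examined in 12 mouse small intestine libraries. The members were all rows whose gene symbol begins with Cyp and a digit, except Cyp51 and Cyp24a1, with the transcript of longest exon length kept for each symbol. This gave 95 members among 19012 symbols. Of these, 41 reached 1 RPKM (reads scaled to exon length and library size) in at least 1 library, 24 reached 10 RPKM, 41 were detected below 1 RPKM throughout and 13 were listed at 0 in every library. The study asked, by its title, whether stem cells of the small intestine carry a programme of location-specific function. Poly(A) RNA came from crypts and villi isolated fresh from the duodenum, jejunum and ileum, and from organoids of each origin kept 12 weeks in culture. Crypts had 2 libraries per origin, while organoids and villi had 1 each. The labels give no strain, age, sex, genotype or treatment, and do not say whether the numbered crypt libraries or the tissues of one origin came from separate animals, so the p-values measure the spread between these libraries. Below, values given in threes are in the order duodenum, jejunum, ileum.

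P450 enzymes are haem-containing monooxygenases. Most sit in the endoplasmic reticulum and receive electrons from P450 oxidoreductase (Por), whereas a few are mitochondrial and use ferredoxin. Members of the Cyp1, Cyp2 and Cyp3 families oxidise drugs and dietary compounds, several Cyp2c and Cyp2j enzymes form epoxides of arachidonic acid, and Cyp4 enzymes hydroxylate fatty acids and eicosanoids. Other families act on sterols, bile acids, steroid hormones, retinoids and vitamin D. The enterocytes lining the villus are known as the main intestinal site of drug oxidation.

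The windows from 250 bases before to 50 bases after the annotated start of 4 members are shown because these genes carry the main contrasts below: Cyp2c29 and Cyp2c66 were high in organoids, Cyp3a11 and Cyp3a13 in villi. The sequences are from RefSeq (GRCm38.p6) and read 5′ to 3′ along the gene. Capitals mark matches, on either strand and anywhere in the window, to 4 strings. These are TATAAA (letters of the kind found in TATA boxes), AGATAA (bound by factors of the Gata family), AGGTCA (a nuclear receptor half-site) and CAAAGTCCA (a sequence of the kind bound by Hnf4a). The marked TATAAA is close to the start in Cyp2c29 but far before it in Cyp2c66 and Cyp3a11. A marked TATAAA is therefore not identified as the TATA box of its gene. The Cyp3a13 window holds none of these exact strings, and variants of them, such as TGATAA, were not marked. Unmarked variants nearer the start include TATATAA in Cyp2c66 and ATATAAT in Cyp3a11.
Cyp2c29 (chr19:39286835-39287134, plus strand): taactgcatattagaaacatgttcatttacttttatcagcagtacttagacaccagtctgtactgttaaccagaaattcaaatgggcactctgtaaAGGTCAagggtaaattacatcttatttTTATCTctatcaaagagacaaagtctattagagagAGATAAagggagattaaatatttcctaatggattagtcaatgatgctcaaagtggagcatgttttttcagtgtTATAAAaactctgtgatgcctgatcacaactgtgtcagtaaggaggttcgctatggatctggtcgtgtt
Cyp2c66 (chr19:39113648-39113947, plus strand): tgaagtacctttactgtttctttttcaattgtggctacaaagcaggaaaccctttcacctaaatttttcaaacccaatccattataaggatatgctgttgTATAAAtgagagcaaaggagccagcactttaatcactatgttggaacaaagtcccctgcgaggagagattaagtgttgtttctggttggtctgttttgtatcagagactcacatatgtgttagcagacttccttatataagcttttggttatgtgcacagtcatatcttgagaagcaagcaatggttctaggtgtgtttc
Cyp3a11 (chr5:145879805-145880104, minus strand): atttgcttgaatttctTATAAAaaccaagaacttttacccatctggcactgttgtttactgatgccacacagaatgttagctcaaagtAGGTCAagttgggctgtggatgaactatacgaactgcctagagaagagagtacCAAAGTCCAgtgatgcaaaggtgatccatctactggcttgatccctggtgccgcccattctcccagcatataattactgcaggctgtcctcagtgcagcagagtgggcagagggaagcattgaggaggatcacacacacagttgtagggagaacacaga
Cyp3a13 (chr5:137921570-137921869, minus strand): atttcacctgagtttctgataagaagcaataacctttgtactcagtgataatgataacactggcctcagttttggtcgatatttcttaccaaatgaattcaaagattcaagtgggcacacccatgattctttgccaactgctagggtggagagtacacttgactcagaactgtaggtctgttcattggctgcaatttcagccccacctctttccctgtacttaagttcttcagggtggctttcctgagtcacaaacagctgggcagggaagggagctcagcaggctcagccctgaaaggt

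RefSeq windows of this length were found for 74 of the 95 members, 84 windows in all. TATAAA was in 39.3% of them against 13.6% of all 32851 windows, and CAAAGTCCA was in 13.1% against 0.475%. AGATAA was in 20.2% against 11.2% and AGGTCA in 26.2% against 16.3%. These matches are descriptions of the letters and were not tested as binding sites, and members in clusters share ancestry and sequence.

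Library totals implied by the RPKM steps ran from 5268480 to 18591819 reads, of which 44.3% to 75.8% fell in the listed genes. The tissue labels were checked against marker genes. Summed RPKM of 16 enterocyte markers was 50516 to 100653 in villi, 769 to 1944 in replicate 1 crypts, 8620 to 24185 in replicate 2 crypts and 2886 to 5164 in organoids. All 16 were higher in replicate 2 than in replicate 1 crypts at each origin, and 7 Paneth cell markers summed to 34141 to 131927 RPKM in replicate 1 and 6219 to 47593 in replicate 2. Stem cell markers (Lgr5, Olfm4, Ascl2 and Smoc2) summed to 403 to 1134 RPKM in replicate 1 crypts and 67.5 to 376 in replicate 2 crypts. Their sums were 514 to 688 RPKM in organoids and 4.73 to 13.7 in villi. Leukocyte markers summed to 262 to 388 RPKM in villi, 7.35 to 370.4 in crypts and 0.513 to 0.543 in organoids. The highest crypt sum was in replicate 1 jejunal crypts and came mostly from Cd74, H2-Ab1 and H2-Aa. Of the 41 members that reached 1 RPKM, 27 (65.9%) were higher in replicate 2 than in replicate 1 crypts at all 3 origins, beside 35.9% of the 11442 genes at 1 RPKM, and 5 were lower (Cyp2d34, Cyp2e1, Cyp2t4, Cyp39a1 and Cyp4f15). The crypt replicates therefore stood apart, and for P450 members both tissue comparisons with crypts are also given against each replicate alone. Each of those fits holds 1 crypt library per origin. Its p-values measure how tissue differences vary between origins, not the spread between crypt replicates.

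The number of members at 1 RPKM or more was 18 to 26 in a crypt library, 28 to 32 in organoids and 25 to 27 in villi. Summed over the 95 members, P450 RPKM was 136, 189.95 and 141 in the replicate 1 crypts and 717, 913 and 762 in the replicate 2 crypts. Organoids held 867, 966 and 793 RPKM, and villi 2923, 2506 and 2797 RPKM. Villus sums were above every other library, and replicate 2 crypts lay close to organoids. By subfamily, 9 of 15 Cyp2c, 7 of 8 Cyp2d, 2 of 8 Cyp2j, 5 of 9 Cyp3a and 8 of 19 Cyp4 members reached 1 RPKM, as did 6 of 19 other Cyp1 and Cyp2 members and 4 of 17 of the other families. Members nearest the threshold were Cyp4f15 (highest value 1.13 RPKM), Cyp2d40 (1.42) and Cyp17a1 (1.53) inside it, and Cyp4f18 (0.975), Cyp3a59 (0.939) and Cyp4a32 (0.917) outside it.

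The makeup of the P450 pool differed between tissues. The Cyp4 genes made up 42.4%, 54.98% and 64.5% of summed P450 RPKM in villi and 45.2% to 48.4% in crypts, against 14.7%, 25.2% and 24.7% in organoids. The Cyp2c genes made up 50.1%, 33.6% and 31.8% in organoids against 4.08% to 5.75% in villi and 4.32% to 18.99% in crypts. Cyp3a genes held 28.7%, 13.99% and 9.70% of the villus sum. Cyp4f14 was the top member in each villus library and in 5 of the 6 crypt libraries, the exception being replicate 1 ileal crypts, where Cyp2s1 led. In organoids Cyp2c65 led in the duodenum, and Cyp2j6 in the jejunum and ileum.

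**Figure D1:**
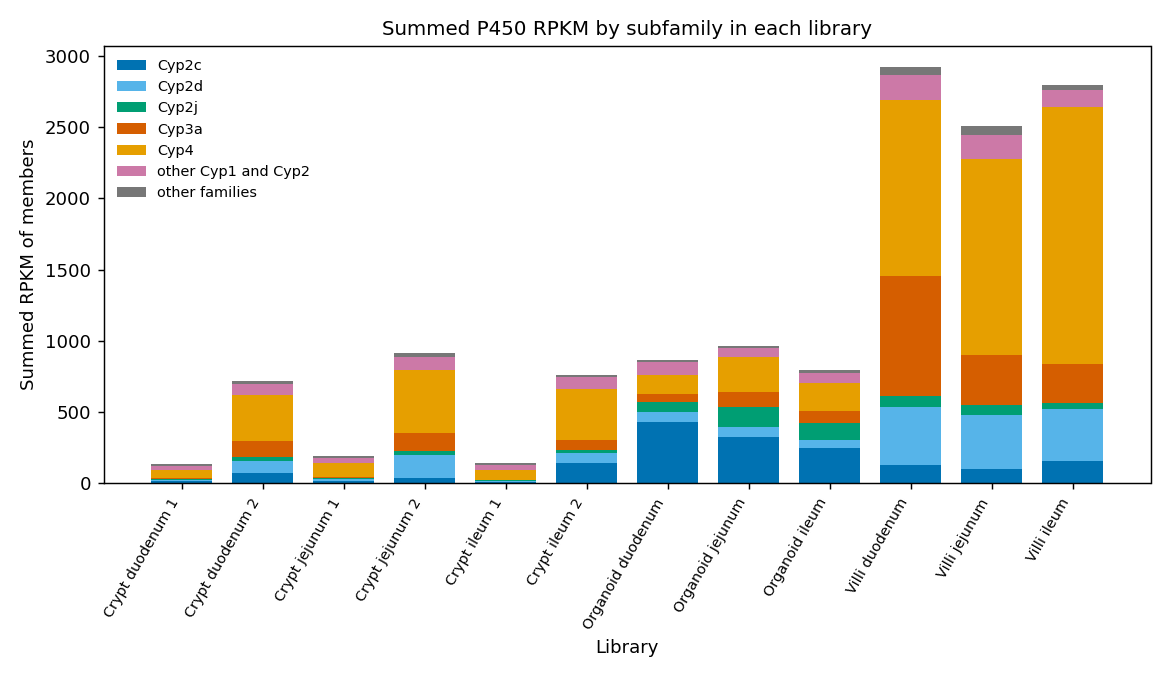
Summed RPKM of the 95 P450 members in each of the 12 libraries, stacked by subfamily; each bar is 1 library and the axis starts at 0. The 3 villus bars (2506 to 2923 RPKM) are the tallest with Cyp4 their largest block, replicate 1 crypt bars are the lowest (136 to 189.95 RPKM), and Cyp2c is the largest block in organoids.

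**Figure D2:**
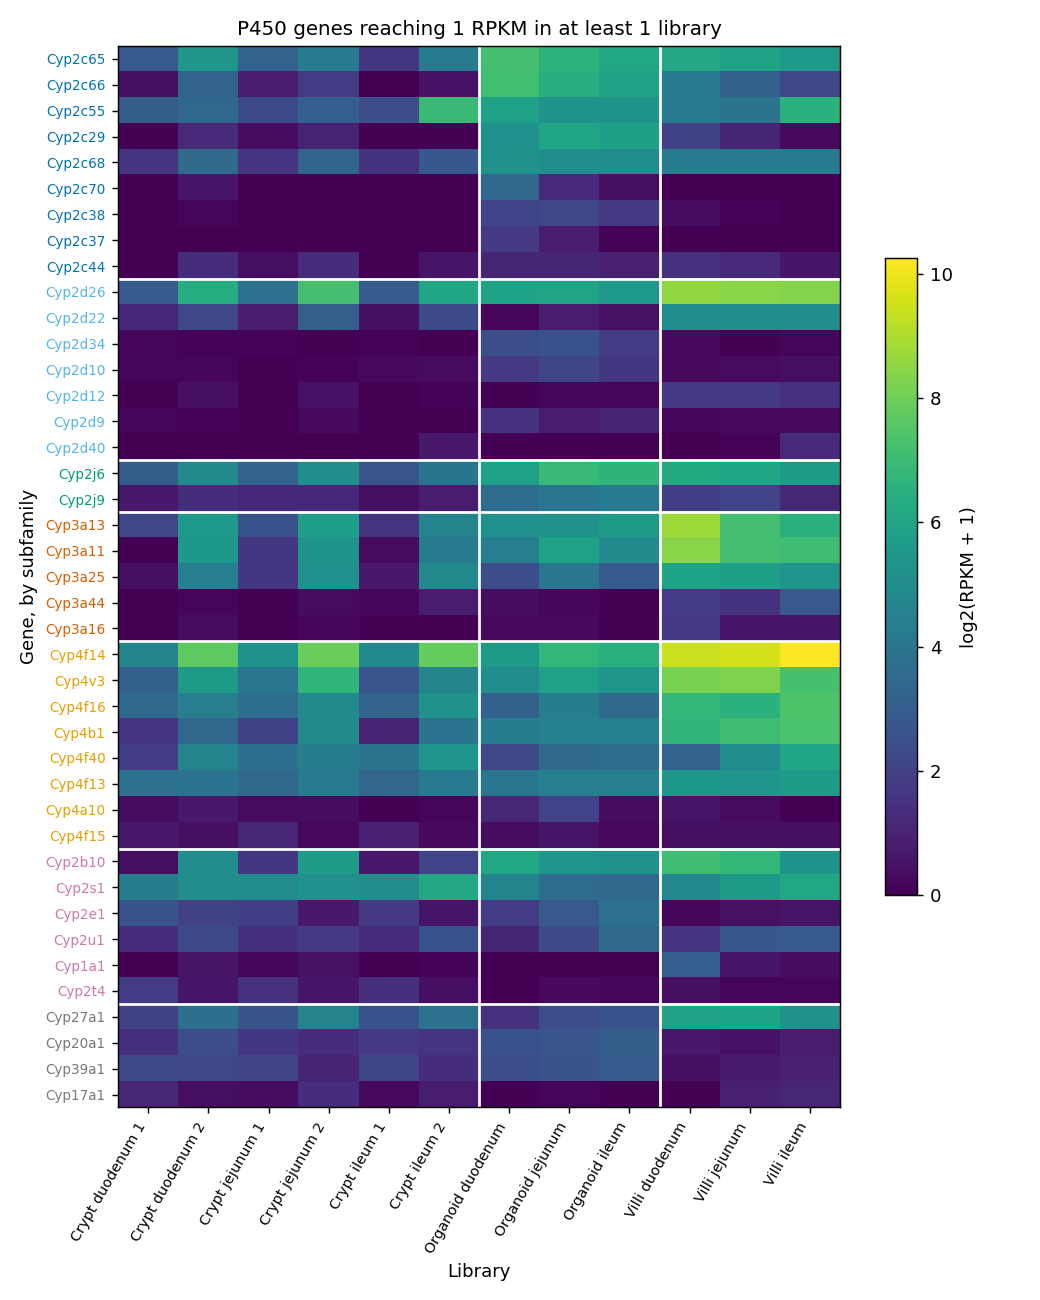
log2(RPKM + 1) of the 41 members that reached 1 RPKM, 1 row per gene grouped by subfamily, 1 column per library; white lines part subfamilies and tissues. Cyp2c29, Cyp2c66 and Cyp2j9 are brightest in organoids, Cyp4f14, Cyp2d26 and Cyp2d22 in villi, and the second crypt column of each origin is brighter than the first for most rows.

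In villi against crypts, all 5 tested Cyp3a members were higher, as were 6 of 10 Cyp4, 3 of 6 Cyp2d, 3 of 7 Cyp2c and both Cyp2j members. These counts include Cyp3a59 and Cyp2d12, which had enough reads to be tested only through the villi. limma on log2(RPKM + 1) over 12 libraries, with tissue and origin as terms, called 25 of the 40 members tested, 22 higher and 3 lower, beside 52.8% of all 11825 genes tested, 20.3% higher and 32.5% lower. The higher calls include Cyp3a59 and Cyp2d12, and the lower calls include Cyp2t4, which had enough reads only through the crypts. Cyp3a44, Cyp1a1 and Cyp4f18, also called higher, passed the read minimum only with villi counted. The largest differences were in Cyp3a11 at 4.75 (SE 1.11, adjusted p = 0.00323), Cyp4b1 at 4.25 (SE 0.67, adjusted p = 2.06e-04), Cyp2b10 at 3.82 (SE 0.93, adjusted p = 0.00411) and Cyp3a13 at 3.79 (SE 0.84, adjusted p = 0.00223). Against replicate 1 and replicate 2 crypts alone these were 6.92 and 2.58 for Cyp3a11, 5.51 and 2.99 for Cyp4b1, 5.49 and 2.14 for Cyp2b10 and 5.36 and 2.21 for Cyp3a13, with all 8 called and Cyp4b1 first against replicate 2. In all, 26 members were called higher and 5 lower against replicate 1 alone (all genes 27.4% and 33.3%), and 20 higher and 2 lower against replicate 2 alone (15.6% and 32%). All log2 fold changes here are on the log2(RPKM + 1) scale, which understates the change of low genes. The median was 0.95 over the tested members and −0.19 over all genes. Under trimmed-mean scaling these medians were 1.33 and −0.04. In bulk tissue, fewer cells of a type and less RNA per cell cannot be told apart. Cyp3a25 was higher in villi by 4.79 against replicate 1 and 0.88 against replicate 2 (adjusted p 3.12e-07 and 0.0322). Members called against replicate 1 and not against replicate 2 included Cyp4f40 at 1.58 and −0.01 (adjusted p 3.38e-04 and 0.99), Cyp2c55 at 2.33 and 0.44 (adjusted p 0.00143 and 0.565), and Cyp2e1, lower, at −1.70 and −0.69 (adjusted p 0.00393 and 0.243). Beside these differences, 8 of 16 enterocyte, 6 of 7 stromal and 5 of 8 leukocyte markers had every villus library above every crypt library. That held for 16.8% of all genes at 1 RPKM. Summed enterocyte markers were above every crypt library in villi, summed stromal markers were 16.97 to 47.2 RPKM in villi and 0.61 to 4.74 RPKM in crypts, and summed leukocyte markers were 262 to 388 RPKM in villi and 7.35 to 370.4 RPKM in crypts. The highest crypt sum was mostly Cd74 (259.6 RPKM), H2-Ab1 (65.3) and H2-Aa (44.8). Ptprc, Cd3e, Cd3g, Cd8a and Cd79a were below 1 RPKM in every crypt library. The part of the enterocyte, stromal and leukocyte markers in the P450 differences was not tested.

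In organoids against crypts, 6 of 7 tested Cyp2c members and both Cyp2j members were higher, while 0 of 5 Cyp3a and 1 of 10 Cyp4 members were called. The Cyp2c count includes Cyp2c38, which had enough reads to be tested only through organoids. limma called 18 members of 40, 16 higher and 2 lower, beside 47.4% of all genes, 23.3% higher and 24% lower. The higher calls include Cyp2c38, Cyp2d9, Cyp2d10 and Cyp2d34, which passed the read minimum only through organoids. Cyp4a10, also called higher, needed organoids to reach the 3 libraries at that minimum. The lower calls include Cyp2t4, which passed it only through crypts. Those calls follow in part from the filter. Cyp2c66 led at 5.34 (SE 0.47, adjusted p = 1.04e-05), followed by Cyp2c29 at 5.24 (SE 0.36, adjusted p = 2.41e-06), Cyp2c65 at 3.04 (SE 0.55, adjusted p = 7.74e-04), Cyp2j9 at 3.03 (SE 0.26, adjusted p = 8.39e-06) and Cyp2b10 at 3.02 (SE 0.93, adjusted p = 0.0174). The median difference was 0.84 over tested members and 0.00 over all genes. With the crypt replicate number as a block the count was 29, 22 higher and 7 lower, beside 55.8% of all genes. The block takes the difference between crypt replicates out of the spread, and organoids and villi have 1 library per origin. P-values with the block, here and below, therefore do not measure the spread between replicates. Against replicate 1 crypts alone 24 members were called higher and 2 lower (all genes 31.9% and 23.9%), and against replicate 2 crypts alone 15 higher and 11 lower (18.7% and 26.5%). Cyp4v3 was at 2.14 and −0.25 against replicates 1 and 2 (adjusted p 8.99e-05 and 0.558), Cyp4b1 at 2.90 and 0.38 (adjusted p 1.58e-05 and 0.291) and Cyp2b10 at 4.70 and 1.35 (adjusted p 7.60e-06 and 0.032). Cyp4f16 and Cyp4f40 were called lower against replicate 2 only, at −1.15 and −1.65, beside 0.20 and −0.06 against replicate 1. Markers of other cell types were read beside these differences. Enteroendocrine markers summed to 717 to 2286 RPKM in organoids, 93.02 to 303 in crypts and 303 to 508 in villi. Of these, 3 of 5 were higher in every organoid library than in every crypt library, beside 16.6% of all genes at 1 RPKM. The 3 goblet markers matched of 5 listed summed to 8178 to 18715, 1713 to 9625 and 4271 to 9595 RPKM in the same order, and none of them separated organoids from crypts. Their part in the P450 differences was not tested.

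In organoids against villi, Cyp2c29, Cyp2c66 and Cyp2j9 were higher in culture. Of 10 Cyp4 members 7 were lower and 1 higher, and of 6 Cyp2d members 3 were lower and 3 higher. limma called 26 members of 40, 11 higher and 15 lower, beside 61.6% of all genes, 36% higher and 25.6% lower. The largest were Cyp2d22 at −4.56 (SE 0.56, adjusted p = 2.09e-05), Cyp2c29 at 4.56 (SE 0.42, adjusted p = 3.47e-06), Cyp27a1 at −3.52 (SE 0.56, adjusted p = 1.39e-04), Cyp4f14 at −3.47 (SE 0.88, adjusted p = 0.00394) and Cyp2c66 at 3.30 (SE 0.54, adjusted p = 1.96e-04). The median was −0.37 over tested members and 0.21 over all genes, which trimmed-mean scaling took to −0.62 and 0.04. Every villus library was above every organoid library in 13 of 16 enterocyte, 8 of 8 leukocyte and 6 of 7 stromal markers, beside 29.6% of all genes at 1 RPKM. The reverse held for 1, 0 and 1 of them, and for 4 of 4 stem cell and 4 of 7 Paneth cell markers, beside 41.4% of all genes. Whether these markers have a part in the P450 differences was not tested. These 3 tissue comparisons share libraries. Of the 40 members tested, 4 passed the read minimum only through organoids (Cyp2c38, Cyp2d9, Cyp2d10 and Cyp2d34), 2 only through villi (Cyp2d12 and Cyp3a59) and Cyp2t4 only through crypts, so their differences follow in part from the filter. The same holds for Cyp3a44, Cyp1a1 and Cyp4f18, which fell short of 3 libraries at that minimum without villi, and Cyp4a10 without organoids.

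**Figure D3:**
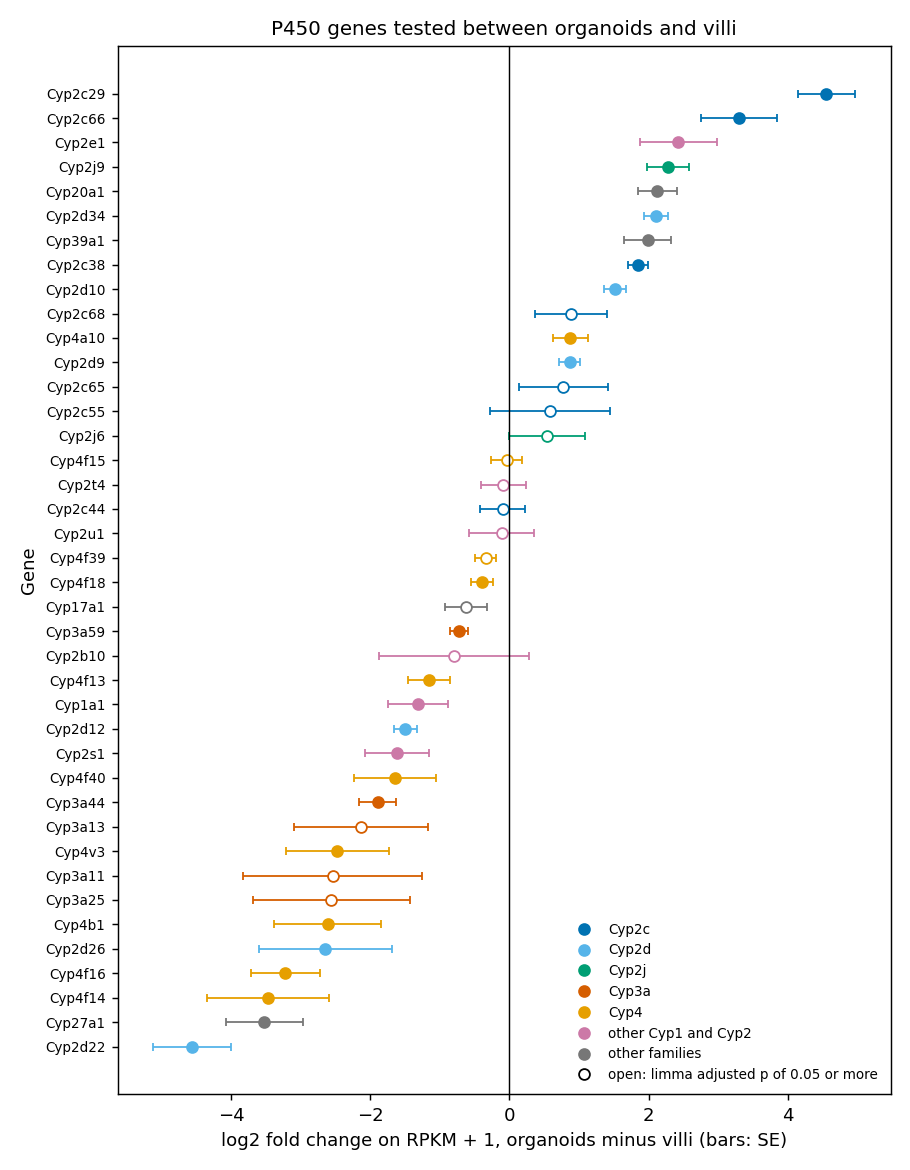
log2 fold change on RPKM + 1 of each of the 40 tested members, organoids minus villi, with bars for the standard error; colours give the subfamily and open points had a limma adjusted p of 0.05 or more. Cyp2c29 (4.56) stands at the organoid end and Cyp2d22 (−4.56) at the villus end, and filled Cyp4 points lie left of 0 except Cyp4a10.

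Among the Cyp3a genes, clustered on chromosome 5 except for Cyp3a13 apart from them at chr5:138334160-138362844 (mm9), 3 were abundant. Cyp3a11 (chr5:146666182-146691429) is the leading drug-oxidising Cyp3a enzyme of mouse liver. Cyp3a11 stood at 0, 2.18 and 0.218 RPKM in the replicate 1 crypts and at 43.7, 38.9 and 17.2 RPKM in the replicate 2 crypts. Organoids gave 19.8, 56.9 and 28.1 RPKM and villi 343, 148 and 133 RPKM. Every villus library was above every other library, duodenal villi most of all, and no reads were listed in replicate 1 duodenal crypts, where 3 reads would have been 0.277 RPKM. Cyp3a13 stood at 3.73, 5.01 and 1.93 RPKM in the replicate 1 crypts and at 44.01, 50.5 and 23.7 RPKM in the replicate 2 crypts. Organoids gave 35.2, 35.8 and 50.1 RPKM and villi 429.8, 145 and 90.3 RPKM. Cyp3a13, an intestinal Cyp3a gene, was likewise highest in villi and lowest in the replicate 1 crypts, while organoids overlapped the replicate 2 crypts. Cyp3a25 stood at 0.289, 2.10 and 0.624 RPKM in the replicate 1 crypts and at 20.2, 35.1 and 27.9 RPKM in the replicate 2 crypts. Organoids gave 4.50, 15.4 and 6.45 RPKM and villi 60.3, 53.8 and 39.9 RPKM. Organoid levels of Cyp3a25, another hepatic and intestinal Cyp3a gene, lay above replicate 1 crypts and below replicate 2 crypts at every origin. Cyp3a25 was 2.23 higher in organoids against replicate 1 (adjusted p = 1.22e-04, limma) and −1.68 against replicate 2 (adjusted p = 9.47e-04), so its direction depended on the replicate. Against all crypts Cyp3a11 differed in organoids by 2.21 (SE 1.11, adjusted p = 0.119) and Cyp3a13 by 1.65 (SE 0.84, adjusted p = 0.121). With the block these gave adjusted p = 2.57e-04 and 0.00119, but against replicate 2 alone the differences were 0.04 and 0.08. Organoids differed from villi by −2.54 (SE 1.29, adjusted p = 0.103) for Cyp3a11, −2.13 (SE 0.97, adjusted p = 0.0715) for Cyp3a13 and −2.56 (SE 1.13, adjusted p = 0.0638) for Cyp3a25, none of them called. With the block adjusted p was 1.57e-04, 3.30e-04 and 4.94e-06, and limma-voom also called Cyp3a25 (adjusted p = 0.0372). The block is set by the crypt libraries alone, so it left these differences unchanged and altered only the spread they are set against. In villi Cyp3a25 rose over crypts by 2.83 (SE 0.98, adjusted p = 0.0264), a call lost without replicate 1 jejunal crypts or any 1 of the villus libraries (adjusted p 0.051 to 0.137).

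**Figure D4:**
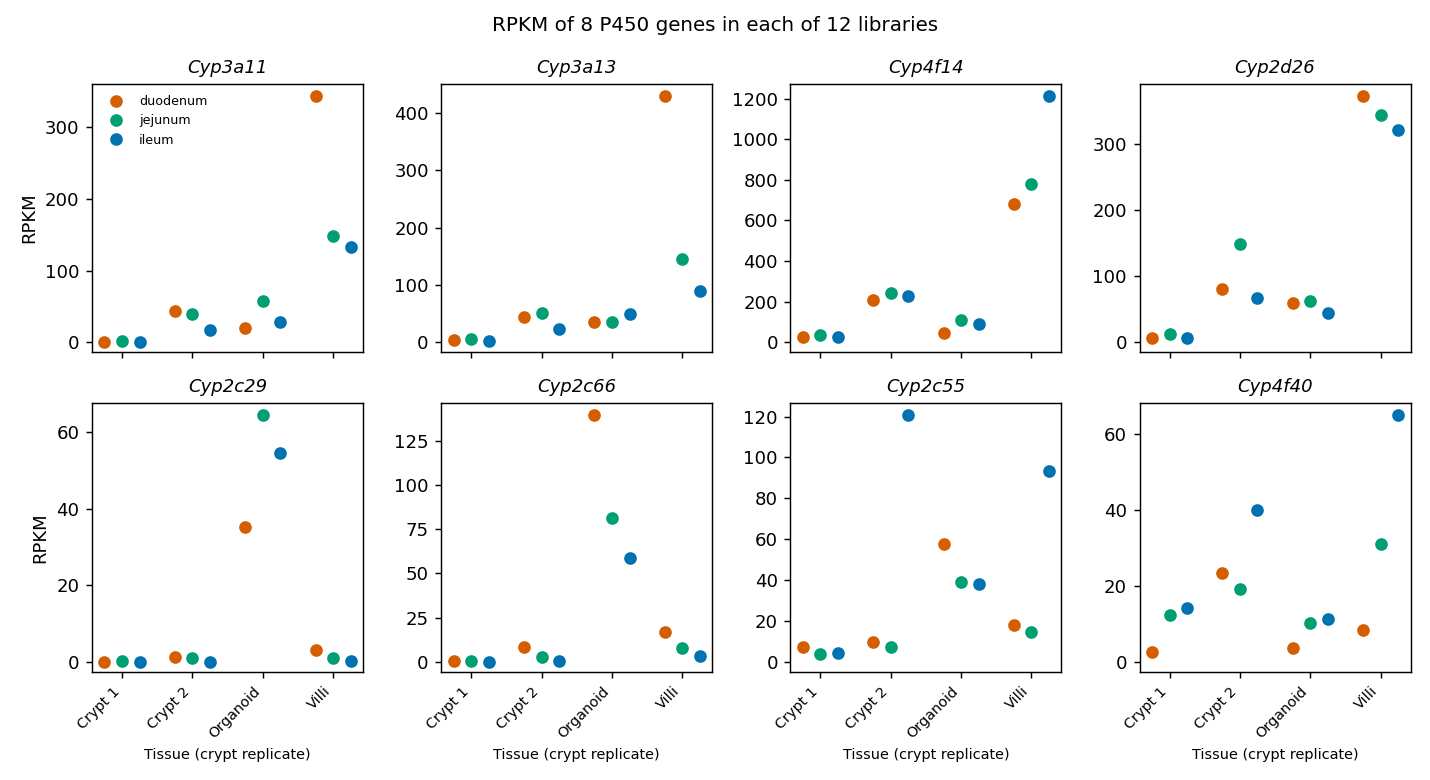
RPKM of 8 members in each library, 1 point per library, coloured by origin, with crypt replicates in separate columns and a linear axis for each gene. Cyp3a11, Cyp3a13, Cyp4f14 and Cyp2d26 are highest in villi, Cyp2c29 and Cyp2c66 in organoids, and Cyp4f40 in ileal villi (64.9 RPKM), while Cyp2c55 peaks in replicate 2 ileal crypts (121 RPKM).

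The low Cyp3a genes followed the villi. Cyp3a44 was 1.83 to 6.27 RPKM in villi and at most 0.744 RPKM elsewhere, a rise over crypts of 1.83 (SE 0.23, adjusted p = 3.72e-05). It passed the read minimum only with villi counted, so this call follows in part from the filter. Cyp3a16 reached 2.24 RPKM in duodenal villi and had too few reads to be tested. Cyp3a59, below 1 RPKM throughout, was at 0.727 to 0.939 RPKM in villi and at most 0.341 RPKM elsewhere.

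The Cyp2c genes, which include arachidonic acid epoxygenases, lie in a cluster on chromosome 19 (mm9) from Cyp2c55 at 39081508 to Cyp2c70 at 40261760, with Cyp2c44 apart at chr19:44079511-44103688. They gave the largest organoid differences. Cyp2c29 stood at 0, 0.257 and 0 RPKM in the replicate 1 crypts and at 1.37, 1.03 and 0 RPKM in the replicate 2 crypts. Organoids gave 35.2, 64.4 and 54.6 RPKM and villi 3.08, 1.09 and 0.185 RPKM. Every organoid library of Cyp2c29 (chr19:39361574-39405202, plus strand) was above every fresh library, and the 3 crypt libraries at 0 allow 0.163 to 0.319 RPKM at 3 reads. Cyp2c66 stood at 0.349, 0.703 and 0 RPKM in the replicate 1 crypts and at 8.59, 2.45 and 0.418 RPKM in the replicate 2 crypts. Organoids gave 139, 81.4 and 58.8 RPKM and villi 16.9, 8.05 and 3.49 RPKM. Cyp2c66 (chr19:39188387-39261245) likewise had all organoids above all fresh libraries, and at each origin villi were above both crypt replicates. Against replicate 1 and replicate 2 crypts separately, Cyp2c29 was 5.56 and 4.91 higher in organoids and Cyp2c66 6.07 and 4.62 higher (adjusted p 2.55e-06, 7.22e-06, 5.10e-07 and 2.82e-06, limma).

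Cyp2c65 stood at 6.43, 8.30 and 2.19 RPKM in the replicate 1 crypts and at 42.3, 18.2 and 16.9 RPKM in the replicate 2 crypts. Organoids gave 148, 98.9 and 67.1 RPKM and villi 72.6, 58.9 and 44.8 RPKM. Cyp2c65, a gastrointestinal Cyp2c gene beside Cyp2c66, overlapped between organoids and villi, and both lay above all crypts. It rose over crypts in villi by 2.26 (SE 0.55, adjusted p = 0.00421). Cyp2c68 stood at 1.98, 1.998 and 1.82 RPKM in the replicate 1 crypts and at 10.5, 8.79 and 6.16 RPKM in the replicate 2 crypts. Organoids gave 36.9, 33.5 and 29.8 RPKM and villi 17.1, 17.9 and 17.9 RPKM. Cyp2c68 was above all crypts in villi, by 1.83 (SE 0.45, adjusted p = 0.00423), and above all villi in organoids, where the rise over crypts was 2.71 (SE 0.45, adjusted p = 4.10e-04). Against villi, Cyp2c65 and Cyp2c68 differed by 0.78 (SE 0.64, adjusted p = 0.309) and 0.88 (SE 0.52, adjusted p = 0.157), called with the block (adjusted p = 0.0235 and 0.00279). Cyp2c55 stood at 7.06, 3.92 and 4.38 RPKM in the replicate 1 crypts and at 9.76, 7.33 and 121 RPKM in the replicate 2 crypts. Organoids gave 57.9, 38.99 and 38.2 RPKM and villi 17.8, 14.4 and 93.5 RPKM. Cyp2c55, known as an inducible gene of liver and colon, had its 2 highest values in ileal libraries, replicate 2 crypts and villi. Its rise over crypts in organoids, 1.97 (SE 0.74, adjusted p = 0.0426), was lost without 8 of the libraries in turn (both duodenal crypts, replicate 1 jejunal or ileal crypts, or duodenal or jejunal organoids or villi, adjusted p 0.0544 to 0.199).

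Cyp2c70, which makes muricholic acids in mouse liver, stood at 10.03, 1.37 and 0.30 RPKM in organoids and at most 0.501 RPKM in any fresh library. Its reads were too few in enough libraries for the tissue test. Cyp2c37 showed 2.33, 0.767 and 0.0796 RPKM in organoids and 0 in all 9 fresh libraries, whose reads allow 0.126 to 0.312 RPKM at 3 reads, and was also untested. Cyp2c38 stood at 2.25 to 3.71 RPKM in organoids and at most 0.266 RPKM in fresh tissue. Cyp2c44, an epoxygenase, ranged from 0 to 1.75 RPKM and was not called between tissues over all libraries. It was called higher against replicate 1 crypts alone in villi, at 0.99, and in organoids, at 0.89 (adjusted p 7.35e-04 and 0.00182), and not against replicate 2, at 0.03 and −0.07.

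The Cyp2d genes, clustered on chromosome 15, split by tissue. Cyp2d26 stood at 6.69, 12.96 and 6.93 RPKM in the replicate 1 crypts and at 80.7, 149 and 66.5 RPKM in the replicate 2 crypts. Organoids gave 59.8, 61.99 and 43.9 RPKM and villi 374, 345 and 322 RPKM. Cyp2d26 (chr15:82620536-82624674) rose over crypts in villi by 3.54 (SE 0.83, adjusted p = 0.00327) and all villi were above all other libraries. In organoids it was 2.55 above replicate 1 crypts and −0.76 against replicate 2 (adjusted p 1.96e-05 and 0.0363, limma), a change of direction. Its fall against villi, −2.64 (SE 0.96, adjusted p = 0.0288), was lost without any 1 of the organoid or villus libraries (adjusted p 0.0504 to 0.0955). Cyp2d22 stood at 1.30, 0.712 and 0.347 RPKM in the replicate 1 crypts and at 3.62, 7.52 and 3.87 RPKM in the replicate 2 crypts. Organoids gave 0.115, 0.768 and 0.361 RPKM and villi 30.1, 31.5 and 33.7 RPKM. Cyp2d22 was at least 30.1 RPKM in each villus library and below 1 RPKM in each organoid library, with a rise over crypts of 3.37 (SE 0.48, adjusted p = 1.07e-04) in villi. In organoids it differed from crypts by −1.19 (SE 0.48, adjusted p = 0.0568), called with the block (adjusted p = 0.00108).

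The low Cyp2d genes fell into an organoid and a villus group. Cyp2d34 stood at 4.44, 4.94 and 2.42 RPKM, Cyp2d10 at 2.26, 3.39 and 2.13 RPKM and Cyp2d9, a steroid hydroxylase of male liver, at 1.79, 0.717 and 1.05 RPKM in organoids. None of the 3 exceeded 0.303 RPKM in fresh tissue. They had enough reads to be tested only through organoids, so their levels are a description. Cyp2d12 was 1.73 to 2.36 RPKM in villi and at most 0.399 RPKM elsewhere, and had enough reads only through villi. Cyp2d40 was detected in 3 libraries, highest in ileal villi at 1.42 RPKM.

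In the Cyp2j cluster of chromosome 4, epoxygenases of arachidonic acid, the neighbours Cyp2j6 and Cyp2j9 were expressed and the other 6 stayed below 1 RPKM. Cyp2j6 stood at 7.23, 8.68 and 5.69 RPKM in the replicate 1 crypts and at 27.4, 32.3 and 15.02 RPKM in the replicate 2 crypts. Organoids gave 56.9, 123 and 100.6 RPKM and villi 73.3, 65.7 and 46.4 RPKM. Cyp2j6 rose over crypts in villi by 2.12 (SE 0.47, adjusted p = 0.00232) and in organoids by 2.67 (SE 0.47, adjusted p = 6.44e-04). Cyp2j9 stood at 0.586, 1.24 and 0.345 RPKM in the replicate 1 crypts and at 1.53, 1.28 and 0.751 RPKM in the replicate 2 crypts. Organoids gave 11.2, 15.4 and 18.1 RPKM and villi 2.71, 3.17 and 1.15 RPKM. All organoids were above all fresh libraries for Cyp2j9, by 2.28 (SE 0.30, adjusted p = 3.26e-05) over villi. Its rise in villi over crypts, 0.75 (SE 0.26, adjusted p = 0.0251), was lost without replicate 1 ileal crypts, duodenal villi or jejunal villi (adjusted p 0.0568 to 0.138).

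Among the fatty acid hydroxylases, Cyp4f14 had the highest RPKM of any member. It oxidises leukotrienes and the side chain of vitamin E, and lies in the Cyp4f cluster of chromosome 17 at chr17:33042014-33054022. Cyp4f14 stood at 24.3, 37.02 and 26.2 RPKM in the replicate 1 crypts and at 209.9, 242 and 228 RPKM in the replicate 2 crypts. Organoids gave 47.2, 109 and 88.6 RPKM and villi 681, 778 and 1214 RPKM. Villi were above every other library and highest in the ileum, while organoids lay between the crypt replicates. Cyp4f14 in organoids was 1.40 above replicate 1 crypts and −1.54 against replicate 2 (adjusted p 0.00179 and 0.00143, limma). In villi it rose over crypts by 3.40 (SE 0.76, adjusted p = 0.00236). Cyp4v3 stood at 7.77, 15.1 and 5.57 RPKM in the replicate 1 crypts and at 47.1, 107 and 24.7 RPKM in the replicate 2 crypts. Organoids gave 31.5, 56.7 and 41.5 RPKM and villi 289.8, 304 and 152 RPKM. Cyp4v3, a fatty acid hydroxylase encoded on chromosome 8, rose in villi by 3.42 (SE 0.64, adjusted p = 7.34e-04), and its fall in organoids against villi, −2.47 (SE 0.74, adjusted p = 0.0108), was lost without jejunal organoids or duodenal villi (adjusted p 0.0504 to 0.0547). Cyp4b1 stood at 2.03, 3.06 and 0.956 RPKM in the replicate 1 crypts and at 9.70, 27.96 and 13.8 RPKM in the replicate 2 crypts. Organoids gave 18.9, 21.5 and 21.6 RPKM and villi 107, 132 and 159 RPKM. Cyp4b1, which oxidises fatty acids and some protoxins, was at least 107 RPKM in each villus library and at most 27.96 RPKM elsewhere. It fell in organoids against villi, at −2.61 (SE 0.77, adjusted p = 0.00991).

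Cyp4f16 stood at 10.2, 12.01 and 8.56 RPKM in the replicate 1 crypts and at 20.02, 28.1 and 36.6 RPKM in the replicate 2 crypts. Organoids gave 7.88, 19.1 and 10.8 RPKM and villi 109.9, 91.7 and 164 RPKM. Cyp4f16 rose in villi over crypts by 2.74 (SE 0.43, adjusted p = 2.07e-04) and fell in organoids against villi, at −3.22 (SE 0.50, adjusted p = 1.17e-04). Cyp4f13 stood at 13.2, 10.1 and 9.54 RPKM in the replicate 1 crypts and at 14.1, 16.99 and 18.3 RPKM in the replicate 2 crypts. Organoids gave 15.1, 21.3 and 21.3 RPKM and villi 42.98, 39.9 and 47.6 RPKM. Cyp4f13 differed less than 2-fold between the crypt replicates at each origin, and its rise in villi over crypts was 1.63 (SE 0.26, adjusted p = 2.29e-04). Cyp4f40 stood at 2.65, 12.2 and 14.2 RPKM in the replicate 1 crypts and at 23.5, 19.04 and 39.9 RPKM in the replicate 2 crypts. Organoids gave 3.69, 10.3 and 11.3 RPKM and villi 8.37, 30.9 and 64.9 RPKM. Cyp4f40 was lower in the duodenum than in the ileum in villi, in organoids and in each crypt replicate. Its fall in organoids against villi, −1.64 (SE 0.59, adjusted p = 0.0273), was lost without any 1 organoid library, jejunal villi or ileal villi (adjusted p 0.0579 to 0.127).

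Cyp4a10, a peroxisome proliferator target, stood at 1.12, 3.14 and 0.280 RPKM in organoids and at most 0.615 RPKM in fresh tissue, above crypts by 0.86 (SE 0.22, adjusted p = 0.00565). The rise over villi, 0.88 (SE 0.25, adjusted p = 0.00814), was lost without jejunal villi (adjusted p = 0.0512). Cyp4a10 passed the read minimum only with organoids counted, so both calls follow in part from the filter. Cyp4f15 ranged from 0.152 to 1.13 RPKM, highest in replicate 1 jejunal crypts, and was not called over all libraries. Against replicate 1 crypts alone it was called lower in villi, at −0.49, and in organoids, at −0.53 (adjusted p 0.0134 and 0.00972), beside 0.12 and 0.08 against replicate 2, not called. Cyp4f18, below 1 RPKM, was called higher in villi than in crypts at 0.45 (SE 0.14, adjusted p = 0.0171), a call lost without jejunal or ileal villi (adjusted p 0.0869 to 0.111). Its fall in organoids against villi, −0.39 (SE 0.16, adjusted p = 0.0498), was lost without any of 9 libraries in turn (replicate 2 duodenal crypts, any jejunal or ileal crypts, jejunal or ileal organoids, jejunal or ileal villi, adjusted p 0.0502 to 0.269).

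Among other Cyp2 genes, Cyp2b10, the classic target of the constitutive androstane receptor, differed widely between the crypt replicates. Cyp2b10 stood at 0.304, 2.14 and 0.597 RPKM in the replicate 1 crypts and at 31.5, 49.5 and 3.17 RPKM in the replicate 2 crypts. Organoids gave 69.6, 40.6 and 37.8 RPKM and villi 133, 109.6 and 38.8 RPKM. Among crypts, the replicate 2 duodenum and jejunum stood out and the other 4 libraries were at most 3.17 RPKM. The rise in organoids over crypts was lost without duodenal or ileal organoids (adjusted p 0.0745 to 0.108). Cyp2s1 stood at 18.5, 29.5 and 32.5 RPKM in the replicate 1 crypts and at 32.7, 35.05 and 71.1 RPKM in the replicate 2 crypts. Organoids gave 23.7, 10.9 and 9.69 RPKM and villi 26.2, 47.5 and 67.7 RPKM. Cyp2s1, a P450 of surface epithelia, fell in organoids against crypts, at −1.24 (SE 0.40, adjusted p = 0.0205), a call lost without jejunal or ileal organoids (adjusted p 0.105 to 0.207). Against villi it fell as well, at −1.62 (SE 0.46, adjusted p = 0.00786), a call lost without ileal organoids (adjusted p = 0.0675).

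Cyp2e1 stood at 5.25, 2.77 and 2.32 RPKM in the replicate 1 crypts and at 2.93, 0.623 and 0.505 RPKM in the replicate 2 crypts. Organoids gave 2.39, 6.20 and 13.5 RPKM and villi 0.132, 0.360 and 0.475 RPKM. Cyp2e1, the ethanol-oxidising P450, was higher in replicate 1 than in replicate 2 crypts at each origin and higher in every organoid library than in any villus library, by 2.43 (SE 0.55, adjusted p = 0.00202). Its rise over crypts, 1.23 (SE 0.48, adjusted p = 0.0496), was lost without 9 libraries in turn (adjusted p 0.0545 to 0.388): replicate 2 duodenal or jejunal crypts, either ileal crypt library, jejunal or ileal organoids, or any villi. Cyp2u1 stood at 1.51, 1.70 and 1.48 RPKM in the replicate 1 crypts and at 3.77, 2.29 and 4.95 RPKM in the replicate 2 crypts. Organoids gave 1.08, 4.19 and 10.3 RPKM and villi 1.94, 6.08 and 6.38 RPKM. Cyp2u1, a long-chain fatty acid hydroxylase, was not called between tissues over all libraries. Against replicate 1 crypts alone it was called higher in villi, at 1.06, and in organoids, at 0.95 (adjusted p 0.0246 and 0.0429), beside 0.24 and 0.13 against replicate 2, not called. Cyp1a1, a target of the aryl hydrocarbon receptor, was 7.25, 0.492 and 0.275 RPKM in villi and at most 0.472 RPKM elsewhere. Its rise in villi over crypts was 1.11 (SE 0.37, adjusted p = 0.0236) and 0.272 without duodenal villi (adjusted p = 0.187), and the difference of organoids from villi, −1.31 (SE 0.43, adjusted p = 0.0173), was lost without duodenal organoids (adjusted p = 0.104). Cyp2t4 was 1.63 to 2.51 RPKM in replicate 1 crypts and at most 0.50 RPKM in all others. Against crypts it fell in villi, at −0.79 (SE 0.28, adjusted p = 0.0294), and in organoids, at −0.88 (SE 0.28, adjusted p = 0.0205). It had enough reads only through the crypts, so these calls follow in part from the filter. They were lost without replicate 1 jejunal or ileal crypts or any villi (adjusted p 0.0539 to 0.115) and without any organoids (adjusted p 0.0532 to 0.122), respectively.

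In the families acting on sterols and steroids, Cyp27a1 is the mitochondrial sterol hydroxylase of bile acid synthesis. Cyp27a1 stood at 2.91, 5.22 and 4.97 RPKM in the replicate 1 crypts and at 12.3, 22.9 and 13.5 RPKM in the replicate 2 crypts. Organoids gave 1.76, 4.58 and 4.91 RPKM and villi 59.1, 60.04 and 36.4 RPKM. Villi were above all crypts, by 2.46 (SE 0.48, adjusted p = 9.79e-04). Organoids overlapped the replicate 1 crypts and lay below the replicate 2 crypts, the difference from crypts being −1.06 (SE 0.48, adjusted p = 0.0866), called with the block (adjusted p = 0.00303). Cyp39a1, an oxysterol hydroxylase, moved the other way, at 4.54, 5.13 and 6.63 RPKM in organoids, 1.03 to 4.04 RPKM in crypts and 0.325, 0.665 and 0.892 RPKM in villi. It rose in organoids over villi by 1.98 (SE 0.34, adjusted p = 2.65e-04) and over crypts by 0.82 (SE 0.30, adjusted p = 0.0368), the latter lost without replicate 2 jejunal or ileal crypts, jejunal or ileal organoids, or jejunal villi (adjusted p 0.0506 to 0.172). Its fall in villi against crypts, −1.17 (SE 0.30, adjusted p = 0.0051), was lost without duodenal villi (adjusted p = 0.0571). Cyp20a1, a P450 of unknown substrate, was 4.98, 5.73 and 7.06 RPKM in organoids, 1.44 to 4.31 RPKM in crypts and 0.560, 0.416 and 0.770 RPKM in villi, so the 3 tissues did not overlap. It rose in organoids over crypts by 1.11 (SE 0.24, adjusted p = 0.00233) and fell in villi, at −1.02 (SE 0.24, adjusted p = 0.00333). Cyp17a1, a steroid hormone enzyme, ranged from 0 to 1.53 RPKM. No retinoid or vitamin D member reached 1 RPKM.

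Along the intestine, no member was called in any comparison of origins. Ileum against duodenum over tissues called 0 of 40 members beside 0.609% of all genes, jejunum against duodenum 0 beside 0%, and ileum against jejunum 0 beside 0.0423%. At an unadjusted p below 0.05 these held 4, 1 and 2 members, and limma-voom on recovered reads also called 0 in each. The largest ileum minus duodenum differences were Cyp4f40 at 1.75 (SE 0.51, adjusted p = 0.179), Cyp2c66 at −1.60 (SE 0.47, adjusted p = 0.185), Cyp2b10 at −1.32 (SE 0.93, adjusted p = 0.896), Cyp2c55 at 1.17 (SE 0.74, adjusted p = 0.833) and Cyp2c65 at −1.08 (SE 0.55, adjusted p = 0.676). With the crypt replicate block 3 members were called, beside 2.55% of all genes: Cyp4f40 higher in the ileum (adjusted p = 0.00986), Cyp2c66 and Cyp2c65 higher in the duodenum (adjusted p = 0.0129 and 0.0296). Cyp4f40 was also called without replicate 2 duodenal crypts and Cyp2c66 without replicate 1 duodenal crypts (adjusted p = 0.0303 and 0.0136). In 4 of 4 ileum and duodenum pairs (each crypt replicate, organoids and villi) Cyp4f14 and Cyp4f40 were higher in the ileum, and Cyp2c65, Cyp2c66, Cyp2d34 and Cyp4a10 higher in the duodenum. These are 14.6% of the 41 members, beside 15.7% of the 11442 genes at 1 RPKM, so the pooled share is near that of all genes. By direction, 2 members (4.88%) were higher in the ileum, beside 10.8% of all genes. Higher in the duodenum were 4 members (9.76%), beside 4.95%. The crypt pairs of Cyp2d34 rest on 0 or 1 read in each library.

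In crypts alone, ileal against duodenal crypts called 0 of 30 members, beside 0.036% of 11123 genes, with 0 members below an unadjusted p of 0.05 and 0 with limma-voom. Cyp2c66 differed most, at −1.60 (SE 0.85, adjusted p = 0.99999), followed by Cyp2c55 at 1.46 (SE 1.28, adjusted p = 0.99999) and Cyp4f40 at 1.40 (SE 0.91, adjusted p = 0.99999). The difference between origins was also compared between tissues, with 9 group means and the single libraries assumed to vary like crypts. This called 0 of 47 members for organoids and 0 for villi against crypts, beside 0% and 0% of 12740 genes, with 5 and 2 members below an unadjusted p of 0.05 and 0 with limma-voom in each. The largest were Cyp2e1 at 3.24 (SE 1.01, adjusted p = 1) and Cyp2c70 at −2.79 (SE 0.35, adjusted p = 0.253) for organoids, and Cyp1a1 at −2.46 (SE 0.37, adjusted p = 0.27) for villi. These rest on 1 organoid or villus library per origin. For villi the median of all genes was 0.21, and 0.01 under trimmed-mean scaling. For Cyp2e1 the organoid values were lowest in the duodenum and highest in the ileum, whereas replicate 1 and 2 crypts were highest in the duodenum.

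The electron donors of the P450s were taken from a list of 8 entries, of which 6 were present and tested. Por, the oxidoreductase that supplies the microsomal P450s, stood at 10.7, 8.87 and 10.8 RPKM in replicate 1 crypts and 27.2, 26.1 and 25.98 RPKM in replicate 2. Organoids gave 14.02, 11.5 and 7.74 and villi 85.2, 54.5 and 50.7 RPKM. Por rose in villi over crypts by 1.85 (SE 0.39, adjusted p = 0.0015) and fell in organoids against villi, at −2.41 (SE 0.44, adjusted p = 4.43e-04). Cyb5r3, the cytochrome b5 reductase, and Cyb5b, the cytochrome b5 of the mitochondrial outer membrane, had the same calls, with rises in villi of 1.82 and 1.23. Cyb5, the microsomal cytochrome b5, was higher in organoids than crypts by 2.31 (SE 0.56, adjusted p = 0.00444), and Fdxr, the mitochondrial ferredoxin reductase, lower, at −0.94 (SE 0.22, adjusted p = 0.00403). Together 3 of 6 were called higher in villi (20.3% of all genes), 1 higher and 1 lower in organoids against crypts (23.3% and 24%), and 3 lower in organoids against villi (25.6%). With the block Cyb5 was also called higher in villi than in crypts (adjusted p = 0.00802) and in organoids than in villi (0.0026). Villi gave 355, 343 and 474 RPKM of Cyb5 and replicate 2 crypts 395, 376 and 335, so villi were lower in the duodenum and jejunum. The block also called Fdx1, the mitochondrial ferredoxin, higher in organoids than in crypts (adjusted p = 0.0123) and than in villi (0.0421). In the jejunum Fdx1 was 21.2 RPKM in organoids and 23.3 RPKM in replicate 2 crypts. Por was called lower in organoids than in crypts (0.0274), although organoids were above replicate 1 crypts in the duodenum and jejunum. Cyb5r3 was called lower in the ileum than in the duodenum (0.038).

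Of 11 transcription factor genes read as regulators of P450s, 9 were tested. In villi against crypts 3 were higher, beside 20.3% of all genes: Nr1i2 (the pregnane X receptor) at 1.07 (SE 0.27, adjusted p = 0.00463), Nr1i3 (the constitutive androstane receptor) at 1.30 (SE 0.37, adjusted p = 0.00981) and their partner Rxra at 1.31 (SE 0.27, adjusted p = 0.00131). In organoids against crypts 2 were higher and 4 lower, beside 23.3% and 24% of all genes. Nr1i3 rose by 1.29 (SE 0.37, adjusted p = 0.0118) and Nr1h4, the bile acid receptor, by 0.97 (SE 0.36, adjusted p = 0.0395). Nr1i3 stood at 6.18, 7.71 and 2.61 RPKM in replicate 1 crypts and 19.6, 19.1 and 3.79 in replicate 2. Organoids gave 18.4, 29.2 and 15.6 RPKM, below replicate 2 crypts in the duodenum. Nr1h4 stood at 7.28, 17.2 and 19.7 RPKM in replicate 1 crypts and 9.44, 14.8 and 65.7 in replicate 2. Its organoid values were 24.8, 36.1 and 44.96 RPKM, below replicate 2 crypts in the ileum. Rxra, Hnf4a, Ppara and Nr1i2 fell by 2.22, 1.89, 1.64 and 0.755 on the log2 scale. Organoids were called lower than villi in those same 4 genes, beside 25.6% of all genes. Hnf4a, a driver of hepatic and intestinal P450 genes, stood at 94.8 to 181 RPKM in crypts, 40.8, 48.6 and 23.6 RPKM in organoids and 112, 141 and 181 RPKM in villi. Between origins Nr1h4 was called, higher in the ileum than in the duodenum by 1.84 (SE 0.36, adjusted p = 0.0385). With the block Nr1i3 was called too, lower in the ileum than in the duodenum, at −1.17, and than in the jejunum, at −1.41 (adjusted p = 0.0245 and 0.0321). The block also called Ppara lower in villi than in crypts (adjusted p = 0.031) and Nr1h4 higher in organoids than in villi (0.0374). No regulator's part in the P450 differences was tested.

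Hepatocyte markers were read because several organoid-high members are known from liver. The 5 markers summed to 144 to 499 RPKM in organoids, 13.4 to 33.2 in crypts and 1.47 to 4.76 in villi. Of them, 3 (Ttr, Alb and Cyp2e1) were higher in every organoid library than in every villus library, beside 41.4% of all genes at 1 RPKM. Most of the sum was Ttr, at 136 to 496 RPKM in organoids. Cyp2e1, given above, is also a member. Alb was 0.355 to 1.79 RPKM in organoids and at most 0.372 RPKM in fresh tissue. Serpina3k was at 0 in crypts and organoids, and Cyp7a1, the rate-limiting enzyme of bile acid synthesis, was at 0 in all 12 libraries. The part of these markers in the P450 differences was not tested.

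Members in clusters resemble each other, so short reads can be shared. Of the 41 expressed members, 9 had no 50-base window in common with the transcripts of another gene (GENCODE M21), 24 shared under 10% and 11 over 20% of their windows. Cyp3a13 and Cyp2j9 shared none, Cyp2c29 2.08% and Cyp4f14 2.72%. Cyp2c66 and Cyp2c65 shared 23.97% and 20.6% of their windows, mostly with each other, and Cyp3a25 shared 26.8% with Cyp3a59 above all. Cyp2c68 (43.3%) and Cyp2d10 (40.5%) shared the most among those described, and their levels are uncertain to that extent, since no source used here says how reads with several matches were treated.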

How the data were processed

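The labels' protocols describe Trizol RNA, poly(A) selection, SOLiD libraries and 50-base reads. Reads were aligned with BWA to mm9, per the submitters' processing notes. The deposited unit is RPKM per transcript, 1 file per library; no source used here says how it was computed. The values were whole multiples of 1 read (tolerance 0.02 reads) for at least 99.967% of values in each library, which gave the read totals. Of 21247 transcripts, the longest per symbol was kept. Genes with at least 10 reads at the median depth in 3 libraries (2 for crypts alone, 1 for the 9 groups) and 15 in all were tested with limma 3.58.1 in R 4.3.3 on log2(RPKM + 1), with Benjamini-Hochberg adjustment over all genes and a threshold of 0.05. The tissue model had 7 residual degrees of freedom and the others 3. Genes at 10 RPKM in any library are given in every library, those at 1 RPKM by range, and test values go to members called or among the 5 largest differences. Other values shown were chosen after they were seen. Members and lists were chosen with earlier results of these data known. Of the regulator list, 1 entry is not reported here. The main fits had no replicate block and took the 6 crypt libraries as independent. Replicate 2 minus replicate 1 crypt differences correlated between origins at 0.42, 0.51 and 0.79 over 11123 genes. A fit with the crypt number as a block was therefore run as an alternative. Further alternatives were another pseudocount, filter, scaling and transcript, limma-voom, each crypt replicate alone and each library left out. Python 3.11.15, pandas 2.3.3 and matplotlib 3.10.9 were used.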

Additional observations from a re-analysis of the deposited data

How the results depend on the processing

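Counts of members called in the tissue comparisons stayed within 1.5 times of 25 (villi against crypts), 18 (organoids against crypts) and 26 (organoids against villi) in each alternative that was run except the replicate block, which gave 29 for organoids against crypts. Leaving out 1 library gave 20 to 28, 13 to 20 and 22 to 29 members, beside 4606 to 6645, 3563 to 6378 and 6237 to 7756 of 11825 genes. Calls that held in every alternative numbered 19 of 25, 12 of 18 and 19 of 26. They include members that passed the read minimum only through the tissue where they were high, so their stability follows in part from the filter. These were Cyp2d12 and Cyp3a59 in villi against crypts, and Cyp2c38, Cyp2d9, Cyp2d10 and Cyp2d34 in organoids against crypts. In organoids against villi they were all of these. Cyp3a44, which needed villi to pass, held in both comparisons with villi, and Cyp4a10, which needed organoids, held in organoids against crypts. For ileum against duodenum the replicate block gave 3 members, crypt replicate 1 alone 1, crypt replicate 2 alone 1, and leaving out 1 library 0 to 1. Over all genes these called 302, 113, 153 and 34 to 94 of 11825. With no filter on low values the ileum-duodenum difference called 5 members for organoids and 6 for villi against crypts; the cause was not tested. Leaving out 1 library gave 0 in the other comparisons of origins that could be refitted; without an organoid or villus library of the ileum or duodenum the difference between tissues could not be fitted. Of the values for single members, 1796 kept their side of the threshold, 97 lost a call, 7 gained one and 0 reversed; in organoids against crypts 3 members (Cyp3a25, Cyp4f14 and Cyp2d26) were called in opposite directions against the 2 crypt replicates, and Cyp4v3, Cyp2c44, Cyp4f15 and Cyp4f16 changed sign with a call against 1 of them. Calls were also lost with no filter (Cyp1a1, Cyp2t4 and Cyp3a25 in villi against crypts; Cyp2b10, Cyp2c55, Cyp2e1, Cyp2t4 and Cyp39a1 in organoids against crypts; Cyp1a1, Cyp2d26 and Cyp4f40 against villi), with the smaller pseudocount (Cyp2e1 and Cyp39a1 in organoids against crypts, Cyp4f18 against villi), with trimmed-mean scaling (Cyp2e1 in organoids and Cyp2t4 in villi against crypts), with limma-voom (Cyp2t4 in villi), with the other transcript choice (Cyp4f18 in organoids against villi), with replicate 1 crypts alone (Cyp2e1, Cyp2s1 and Cyp39a1 in organoids against crypts, Cyp4f18 in villi against crypts and organoids against villi) and with replicate 2 crypts alone (Cyp1a1, Cyp2j9 and Cyp2t4 in villi, Cyp2c55 in organoids against crypts). Apart from the counts and calls given beside the results, the replicate block added Cyp2c44, Cyp2c55, Cyp2e1 and Cyp4f40 in villi against crypts, Cyp4f39 in both organoid comparisons, and Cyp17a1, Cyp2c44, Cyp4b1, Cyp4f40 and Cyp4v3 in organoids against crypts, and lost none. limma-voom, chosen after seeing the data, called 26, 22 and 29 members in the tissue comparisons, beside 6664, 6165 and 7715 of 11825 genes. It added Cyp2c29 and Cyp2c44 in villi against crypts, and Cyp2d22 and Cyp4b1 in organoids against crypts. In organoids against villi it added Cyp3a25, and in both organoid comparisons Cyp17a1 and Cyp4f39. The planned count models were not run, because the deposited unit is not counts. Depth limits low members: 1 read in a transcript of 2 kb was worth 0.0269 to 0.0949 RPKM.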
